A study of Mus musculus with 6 samples.

Results

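The breakdown of the branched-chain amino acids leucine, isoleucine and valine was followed through 10 genes, taken as a list by name and ordered by step: Bcat2 for transamination, Bckdha, Bckdhb and Dbt for the dehydrogenase complex, Bckdk and Ppm1k for its kinase and phosphatase, and Ivd, Mccc1, Mccc2 and Auh for the leucine arm. All 10 were among the 20121 genes counted and all 10 passed the filter on low counts, which left 14877 genes for testing. Gene expression was measured by RNA sequencing of whole hearts from pups at postnatal day 14, on a mixed background of ICR and C57BL/6. The 3 mutant pups (Myh6-Cre; TRalphaAMI) carried a knock-in allele that makes a dominant negative thyroid hormone receptor alpha wherever Cre has acted. Their Cre came from a transgene under the Myh6 promoter, which drives expression in cardiomyocytes. The 3 control pups (TRalphaAMI) were littermates that carried the same allele without Cre. The question was which transcripts depend on thyroid hormone in the heart. There was no group with Myh6-Cre alone, so effects of Cre and of the altered receptor cannot be told apart. In whole hearts, fewer cells that express a gene and less RNA per cell cannot be told apart either.

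Branched-chain amino acids are broken down in mitochondria. The aminotransferase BCAT2 removes the amino group, and the branched-chain ketoacid dehydrogenase complex then commits the carbon skeleton to oxidation. The complex is built from E1 (subunits alpha and beta, from Bckdha and Bckdhb), E2 (Dbt) and E3 (Dld, shared with other dehydrogenase complexes). The kinase BCKDK phosphorylates E1 alpha and switches the complex off, and the phosphatase PPM1K switches it on again. Leucine carbon goes on through isovaleryl-CoA dehydrogenase (IVD), methylcrotonyl-CoA carboxylase (MCCC1 and MCCC2) and methylglutaconyl-CoA hydratase (AUH), while valine, and part of isoleucine, end in propionyl-CoA. Heart muscle is among the tissues known to oxidise these amino acids.

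The libraries held 45944049 to 48359735 counts in mutant hearts and 43314706 to 62095277 counts in control hearts. The labels were checked on 3 genes. Myh7, the slow myosin of the fetal heart, was at 18083 ± 922 CPM in mutant hearts and 319 ± 60.6 CPM in control hearts (SD, n = 3 each), and Myh6, the fast myosin of the adult mouse heart, was at 3830 ± 431 CPM in mutant hearts and 37265 ± 1938 CPM in control hearts (SD, n = 3 each). Thra, the gene of the altered receptor, was at 137 ± 10.4 CPM in mutant hearts and 76.7 ± 8.54 CPM in control hearts, but its counts cover the altered and the normal transcript together. Genes of the mitochondrial genome took 16.7% to 18.8% of the counts in mutant hearts and 22.3% to 24.8% in control hearts, and the 9 calls among the members described next were also made with these genes left out. CPM is the count of a gene per 1e+06 counts of the library after TMM scaling, which corrects for composition. With library totals alone the median of all genes tested was shifted by 0.28 on the log2 scale, and 86.1% of the called genes were higher in mutant hearts, against 48.1% with TMM. No member was at a low count: the lowest value of any member in any heart was 880 counts and the highest 11463.

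Of the 10 genes, 9 were lower in mutant hearts and none was higher by edgeR's quasi-likelihood test, at an adjusted p under 0.05 after Benjamini-Hochberg over all genes tested. Over all genes tested, 19.5% were called lower and 18.1% higher. The 10 genes were chosen with earlier results of these data known, so this contrast is not independent of that choice. The gene outside the call was Dbt, the E2 core of the complex. Dbt did not pass at an unadjusted p under 0.05 either, a rule that includes all the calls above. DESeq2 gave 9 lower and 0 higher members, where 2747 of the 20121 genes counted were lower and 2613 higher. In 9 members the CPM values of the mutant hearts lay entirely below those of the control hearts, which held for 25.4% of all genes tested. The median log2 fold change of the 10 genes was -0.68, against -0.00 over all genes tested. With library totals alone, 7 members were lower, where 8.11% of all genes tested were, and 1 member, Dbt, was higher, where 50.3% were, against 37.5% called in either direction with TMM and 58.4% with totals. In limma on log2(RPKM + 0.1), also without composition scaling, 7 members were lower and 1 higher, where 8.21% and 49.7% of all genes were and 57.9% were called in either direction. Groups that stood apart in the higher direction made up 24.4% of all genes and 0 of the members.

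**Figure D1:**
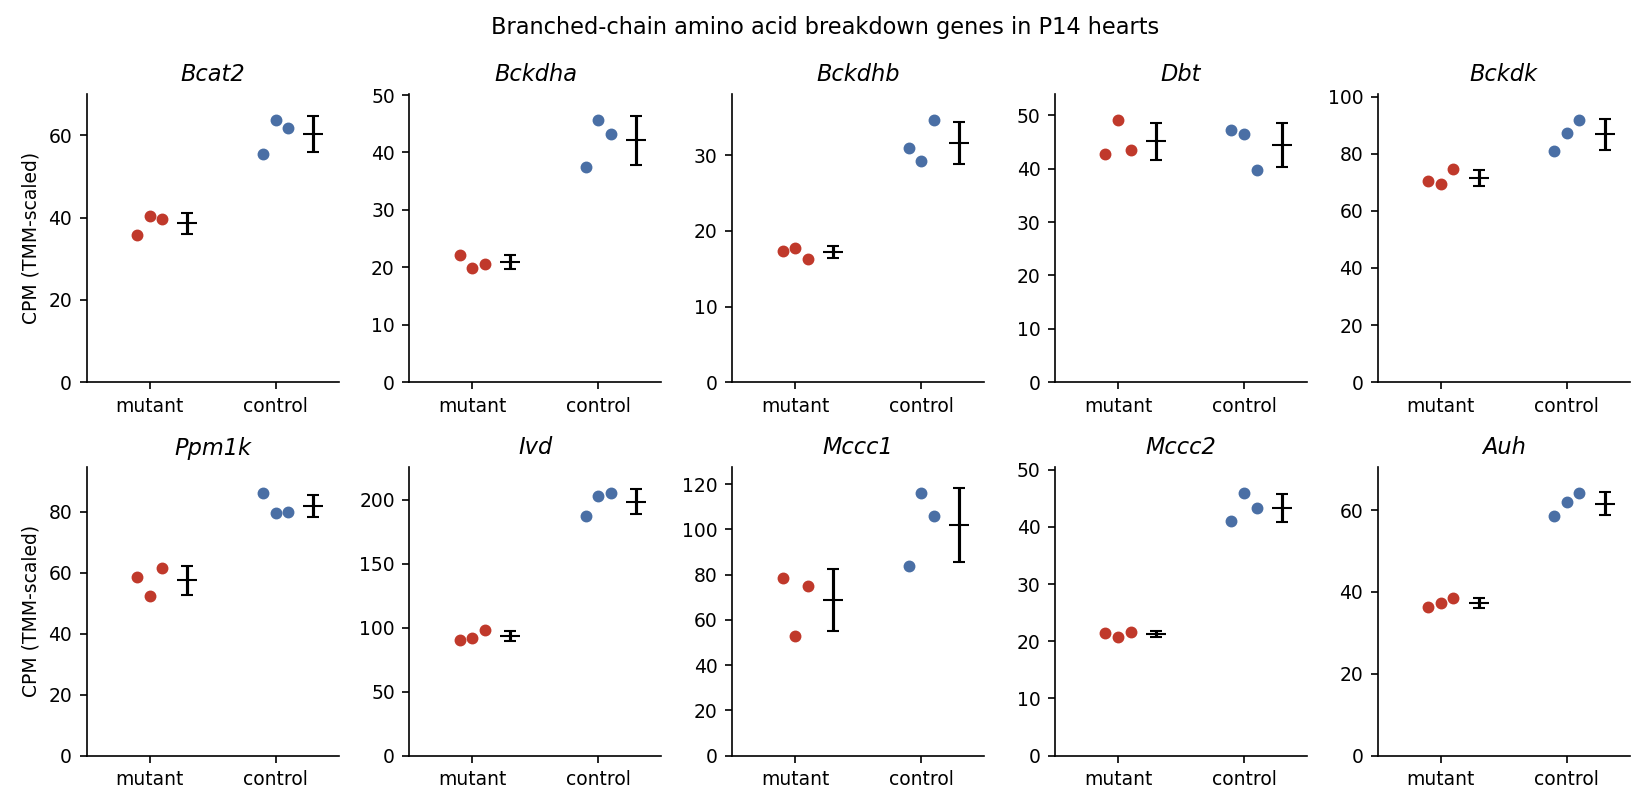
CPM (TMM-scaled) of the 10 genes by group, mutant left of control, with each point a heart and the bars the mean ± SD of 3 hearts. In 9 genes the mutant hearts lie below all control hearts, and for Dbt the groups overlap, with means of 45.2 CPM in mutant hearts and 44.5 CPM in control hearts.

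Promoter windows from RefSeq (build GRCm38.p6) could be matched for 9 members, all but Dbt, with 11 windows of 300 bases in all. The letters AGGTCA, a half-site that thyroid hormone receptors and many other nuclear receptors are known to bind, were searched on both strands. They were found in 2 of the 11 windows, those of Bckdhb and Ppm1k, against 16.3% of the 32851 windows of all genes. A direct repeat of these letters with 4 bases of any kind between the copies was in 0 of the 11 and in 5 of all windows (0.0152%), and any such pair would also count as a match of the single half-site. The 250 bases before the RefSeq start are shown for the Bckdhb and Ppm1k windows with a match, with the half-site in capitals. They are also shown for Ivd, the member with the smallest adjusted p, which has none in this window. RefSeq starts differ from the gene bounds given below, and the last bases shown for Ivd lie inside those bounds. The match begins at position -119 from the RefSeq start of Bckdhb and at -124 from that of Ppm1k, on the coding strand of each. A match of letters is a description and not a binding site. Each sequence is read in the direction of its gene.
Bckdhb, chr9:83924887-83925136, plus strand: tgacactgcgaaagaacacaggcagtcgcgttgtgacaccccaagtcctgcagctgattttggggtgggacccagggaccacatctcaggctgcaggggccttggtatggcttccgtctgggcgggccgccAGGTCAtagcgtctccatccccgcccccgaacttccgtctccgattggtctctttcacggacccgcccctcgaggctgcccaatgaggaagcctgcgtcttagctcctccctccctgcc
Ppm1k, chr6:57535488-57535737, minus strand: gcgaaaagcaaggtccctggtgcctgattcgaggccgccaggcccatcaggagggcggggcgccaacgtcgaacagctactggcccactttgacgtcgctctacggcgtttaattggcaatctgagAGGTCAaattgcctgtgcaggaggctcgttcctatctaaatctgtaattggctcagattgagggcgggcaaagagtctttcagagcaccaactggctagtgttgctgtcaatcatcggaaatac
Ivd, chr2:118861744-118861993, plus strand: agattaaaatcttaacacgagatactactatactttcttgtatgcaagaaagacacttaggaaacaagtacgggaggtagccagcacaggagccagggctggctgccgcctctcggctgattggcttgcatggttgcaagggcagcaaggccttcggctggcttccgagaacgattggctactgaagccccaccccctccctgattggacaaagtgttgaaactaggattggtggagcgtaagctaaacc

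Bcat2, the mitochondrial aminotransferase that begins the pathway (ENSMUSG00000030826, mm10 chromosome 7, 45570153 to 45589711, plus strand), fell in mutant hearts. It was at 35.7, 40.4 and 39.7 CPM in the mutant hearts and at 55.4, 63.8 and 61.7 CPM in the control hearts. The highest mutant heart stood well below the lowest control heart. On the log2 scale it fell by 0.65 ± 0.08 (SE; edgeR quasi-likelihood test, Benjamini-Hochberg adjusted p = 1.71e-04). Of its exon bases, 15.9% lie opposite exons of a gene on the other strand, and the library kit does not mark strand. Bcat1, the cytosolic aminotransferase, rose. It was at 5.33 ± 0.429 CPM in mutant hearts and 2.82 ± 0.313 CPM in control hearts (SD, n = 3 each), with no overlap between the hearts. Bcat1 was thus 1.88-fold higher in mutant hearts (edgeR quasi-likelihood adjusted p = 3.74e-04).

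The genes of the dehydrogenase complex did not change alike. Both E1 genes fell, to 49.5% and 54.2% of their control levels, whereas Dbt, the gene of the E2 core that carries the acyl group on lipoic acid, did not pass the test. Bckdha, for E1 alpha (ENSMUSG00000060376, chromosome 7, 25629946 to 25658981, minus strand), was at 22.2, 19.9 and 20.5 CPM in the mutant hearts and at 37.4, 45.7 and 43.2 CPM in the control hearts. Its log2 fold change was -1.01 ± 0.09 (SE), to 49.5% of the control level (edgeR quasi-likelihood adjusted p = 1.98e-05). Exons of B3gnt8, on the opposite strand, share 61.7% of the exon bases of Bckdha, so reads there cannot be told apart. Per length, B3gnt8 averaged 0.711 RPKM in mutant hearts and 0.520 RPKM in control hearts, where Bckdha averaged 12.0 RPKM in mutant hearts and 20.0 RPKM in control hearts. The levels of both genes would be understated if reads in the shared bases were left uncounted, and how they were counted is not known here. The CPM of B3gnt8 overlapped between groups, with a log2 fold change of 0.17 (edgeR quasi-likelihood adjusted p = 0.303).

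Bckdhb, for E1 beta (ENSMUSG00000032263, chromosome 9, 83925145 to 84124240, plus strand), was at 17.4, 17.8 and 16.3 CPM in the mutant hearts and at 31.0, 29.3 and 34.7 CPM in the control hearts. The groups stood apart and the mutant hearts lay close together. Bckdhb fell by 0.88 ± 0.08 on the log2 scale (SE; edgeR quasi-likelihood adjusted p = 2.90e-05). Dbt (ENSMUSG00000000340, chromosome 3, 116513070 to 116549981, plus strand) was at 42.8, 49.2 and 43.5 CPM in the mutant hearts and at 47.3, 46.5 and 39.8 CPM in the control hearts. The groups overlapped, with the highest value in a mutant heart and the lowest in a control heart. The log2 fold change was 0.02 with a 95% interval of -0.17 to 0.21, which does not reach the change of either E1 gene (edgeR quasi-likelihood adjusted p = 0.878). With library totals alone the value was 0.31, beside the shift of 0.28 of the median gene. Dld, the shared E3 subunit, fell to 406 ± 25.2 CPM in mutant hearts, against 539 ± 30.6 CPM in control hearts (SD, n = 3 each), or by 0.41 ± 0.07 on the log2 scale (SE; edgeR adjusted p = 0.00168). That call was lost with library totals alone, where the value was -0.12.

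Ratios of 2 genes within a heart do not depend on how libraries are scaled, and 6 such ratios of deposited RPKM were compared between groups. The ratio of Dbt to Bckdha was 1.09, 1.40 and 1.21 in the mutant hearts and 0.717, 0.577 and 0.522 in the control hearts. That of Dbt to Bckdhb was 1.33, 1.49 and 1.44 in the mutant hearts and 0.822, 0.855 and 0.618 in the control hearts. In every mutant heart the E2 transcript exceeded each E1 transcript per length, and in every control heart it was below both. The differences were 1.03 and 0.90 on the log2 scale, each with an exact two-sided permutation p of 0.1, the smallest that 3 hearts against 3 allow, and 0.12 after Benjamini-Hochberg over the 6 ratios. The ratio of the E1 genes to each other, Bckdhb over Bckdha, was 0.821, 0.941 and 0.839 in the mutant hearts and 0.872, 0.674 and 0.845 in the control hearts. These overlapped (difference 0.13 on the log2 scale, exact two-sided permutation p = 0.6). The overlap with B3gnt8 makes the absolute ratios to Bckdha uncertain.

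**Figure D2:**
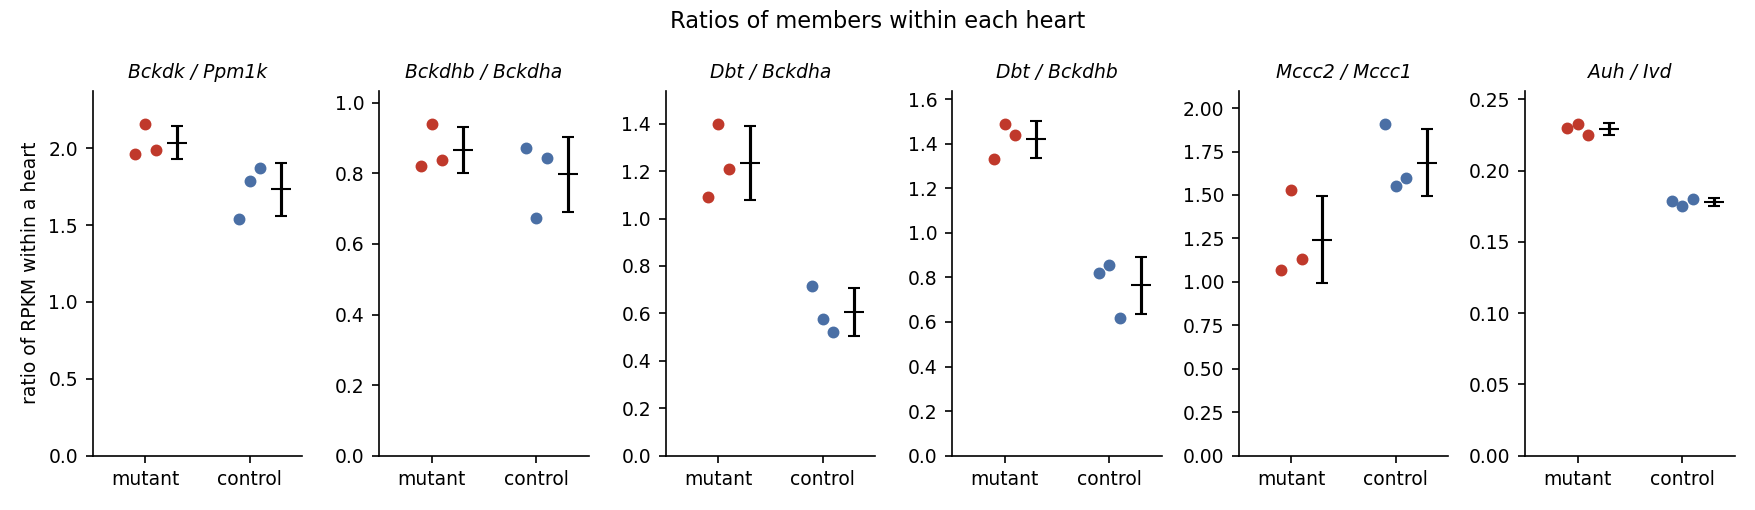
Ratios of deposited RPKM of pairs of genes within each heart, mutant left of control, with bars for the mean ± SD of 3 hearts. The ratios of Dbt to both E1 genes lie above 1 in all mutant hearts and below 1 in all control hearts, while that of Bckdhb to Bckdha overlaps between groups. The absolute ratios to Bckdha are uncertain, as its exons overlap those of B3gnt8.

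Both regulators of the complex were lower, by less than the E1 genes, and the 95% intervals of their changes did not meet those of Bckdha and Bckdhb. Bckdk, the inactivating kinase (ENSMUSG00000030802, chromosome 7, 127904082 to 127910221, plus strand), was at 70.4, 69.3 and 74.8 CPM in the mutant hearts and at 81.1, 87.4 and 91.9 CPM in the control hearts. The groups did not overlap, but the gap between them was narrow. It fell by 0.28 ± 0.07 on the log2 scale (SE; edgeR quasi-likelihood adjusted p = 0.00937). It lost its call without mutant replicate 2 (adjusted p = 0.0504 in the same edgeR test), and with library totals alone its value was 0.01, so its direction rests on the scaling. Relative to the median gene it was lower under both scalings, but the change of scaling moves Bckdk and the median gene by about the same amount. Its place below the median gene is therefore no further evidence of its direction. Ppm1k, the activating phosphatase (ENSMUSG00000037826, chromosome 6, 57506502 to 57535468, minus strand), was at 58.6, 52.3 and 61.4 CPM in the mutant hearts and at 86.0, 79.5 and 80.0 CPM in the control hearts. All mutant hearts were below all control hearts. Ppm1k fell by 0.51 ± 0.07 on the log2 scale (SE), to 70.2% of the control level (edgeR quasi-likelihood adjusted p = 5.56e-04).

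The ratio of kinase to phosphatase transcript per length was 1.96, 2.16 and 1.99 in the mutant hearts and 1.54, 1.79 and 1.87 in the control hearts. It was higher in every mutant heart than in any control heart, by 0.24 on the log2 scale, with an exact two-sided permutation p of 0.1, the smallest possible here, and an adjusted p of 0.12. Without single hearts the difference ranged from 0.15 to 0.29. Klf15, a transcription factor known in mice to regulate branched-chain amino acid breakdown, was at 44.0 ± 2.05 CPM in mutant hearts and 51.5 ± 2.67 CPM in control hearts (SD, n = 3 each). Its log2 fold change of -0.23 passed the edgeR quasi-likelihood test (adjusted p = 0.0243), but the call was lost without control replicate 3 (0.0749), mutant replicate 2 (0.103) or mutant replicate 3 (0.0643), and with library totals alone the value was 0.06.

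All 4 members of the leucine arm fell. Ivd, the dehydrogenase that acts first after the complex (ENSMUSG00000027332, chromosome 2, 118861954 to 118882909, plus strand), had the smallest adjusted p of the 10 genes. It was at 90.3, 91.7 and 98.1 CPM in the mutant hearts and at 187, 203 and 205 CPM in the control hearts. Every mutant heart was thus far below every control heart. The log2 fold change was -1.09 ± 0.06 (SE), to 47.1% of the control level (edgeR quasi-likelihood adjusted p = 2.30e-06). Auh, the hydratase that follows the carboxylase and is also known as an RNA-binding protein (ENSMUSG00000021460, chromosome 13, 52835119 to 52929681, minus strand), was at 36.2, 37.2 and 38.5 CPM in the mutant hearts and at 58.5, 62.0 and 64.1 CPM in the control hearts. The values within each group lay close together, with a log2 fold change of -0.72 ± 0.06 (SE) (edgeR quasi-likelihood adjusted p = 2.48e-05).

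The fall of Auh was smaller than that of Ivd. The ratio of Auh to Ivd was 0.230, 0.233 and 0.225 in the mutant hearts and 0.179, 0.175 and 0.180 in the control hearts, a difference of 0.37 on the log2 scale (exact two-sided permutation p = 0.1, the smallest possible, adjusted p = 0.12). The SD within each group was 0.02 on the log2 scale.

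The subunits of methylcrotonyl-CoA carboxylase, a biotin enzyme, differed in how evenly they fell. Mccc2, for the beta subunit (ENSMUSG00000021646, chromosome 13, 99948530 to 100015639, minus strand), was at 21.4, 20.8 and 21.7 CPM in the mutant hearts and at 41.0, 45.9 and 43.3 CPM in the control hearts. The mutant hearts were nearly equal and stood at 49.0% of the control level, with a log2 fold change of -1.03 ± 0.07 (SE) (edgeR quasi-likelihood adjusted p = 3.42e-06). Mccc1, for the alpha subunit that carries biotin (ENSMUSG00000027709, chromosome 3, 35959312 to 36000678, minus strand), was at 78.4, 53.1 and 75.0 CPM in the mutant hearts and at 83.9, 116 and 106 CPM in the control hearts. The groups were apart by a small margin, and both held a low heart, mutant replicate 2 and control replicate 1. The log2 fold change was -0.57 ± 0.15 (SE), the widest error of the 10 genes (edgeR quasi-likelihood adjusted p = 0.0167). Without control replicate 2 the call was lost (adjusted p = 0.0755), as it was with library totals alone (adjusted p = 0.135, value -0.28). Exons on the opposite strand share 5.60% of the exon bases of Mccc1.

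The ratio of Mccc2 to Mccc1 was 1.07, 1.53 and 1.13 in the mutant hearts and 1.91, 1.55 and 1.60 in the control hearts. It was lower in each mutant heart than in any control heart, though mutant replicate 2 nearly met control replicate 2. The difference was -0.45 on the log2 scale (exact two-sided permutation p = 0.1, the smallest possible, adjusted p = 0.12), and from -0.61 to -0.35 without single hearts.

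Per length, the order of the 10 transcripts differed between the groups. In mutant hearts, Bckdk was highest with a mean of 21.2 RPKM, followed by Ivd with 18.6 and Dbt with 14.8 RPKM. In control hearts, Ivd came first with 32.5 RPKM, then Bckdk with 21.2, Bckdha with 20.0 and Bckdhb with 15.8 RPKM. Dbt held rank 3 in mutant hearts, at 14.8 ± 1.23 RPKM, and rank 8 in control hearts, at 12.0 ± 1.12 RPKM (SD, n = 3 each). Mccc1 and Auh held ranks 9 and 10 in both groups. Several neighbours in the order were not separated: in mutant hearts Bcat2, Ppm1k and Bckdhb, at ranks 5 to 7 below Bckdha, had means of 10.9, 10.5 and 10.4 RPKM with overlapping hearts. In control hearts the values of Bckdk and Bckdha overlapped, as did those of Bckdhb and Mccc2, of Mccc2 and Bcat2 (means 14.0 and 13.9 RPKM) and of Ppm1k and Dbt (12.2 and 12.0 RPKM). The level of Bckdha, and so its place and that of Dbt above it in mutant hearts, is uncertain: it would be understated if reads in the bases shared with B3gnt8 were left uncounted, and how they were counted is not known here. RPKM has no correction for library composition, so these levels are ordered within a group and not compared between groups.

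**Figure D3:**
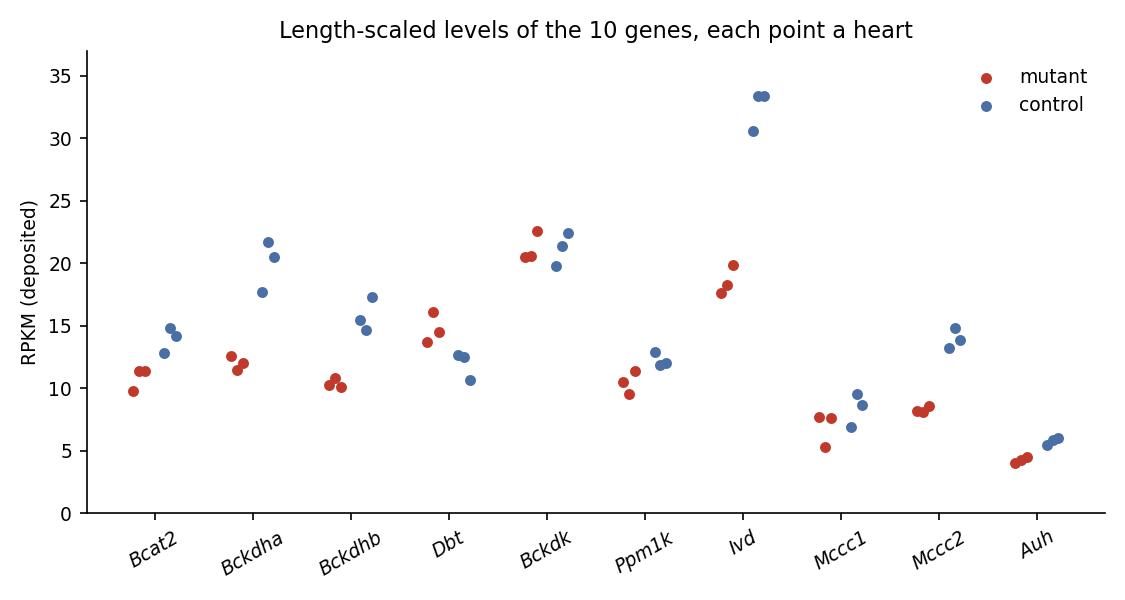
Deposited RPKM of the 10 genes in order of step, mutant left of control, with each point a heart. Ivd and Bckdk have the highest means of the 10 genes in both groups, with Bckdha overlapping Bckdk in control hearts, and Dbt is above both E1 genes only in mutant hearts. The level of Bckdha, and so its place among the 10, is uncertain because its exons overlap those of B3gnt8.

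Among 21 genes listed for other catabolic steps there were 19 that fell, 1 that rose (Bcat1) and 1 that did not pass (Hadha). Their median log2 fold change was -0.56. The 21 included Hadha and Hadhb, which are known from fatty acid oxidation. Of the 21, 15 were lower and 1 higher with library totals alone. All 8 genes of the propionate arm fell, with a median of -0.61 and a range of -1.22 to -0.49, and all 8 were also lower with library totals alone. Pcca, the biotin-carrying subunit of propionyl-CoA carboxylase, was at 24.4, 24.8 and 24.3 CPM in the mutant hearts and at 60.0, 58.7 and 52.5 CPM in the control hearts. This was a fall to 42.9% of the control level (edgeR quasi-likelihood adjusted p = 1.85e-06). Its partner subunit Pccb fell to 64.1% of its control level. Mut, the B12-dependent methylmalonyl-CoA mutase, fell to 56.6 ± 3.56 CPM in mutant hearts, against 108 ± 4.79 CPM in control hearts (SD, n = 3 each), and Mcee, the epimerase before it, fell by 0.65 on the log2 scale.

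Of 9 genes listed for the isoleucine and valine arms, 8 fell and 1 did not pass. The median was -0.53 and the range -0.71 to -0.16. The 9 included Hadha and Hadhb, which are known from fatty acid oxidation. Hadha was the 1 that did not pass (log2 fold change -0.16, edgeR quasi-likelihood adjusted p = 0.0848), and the median was the value of Hadhb. With library totals alone 5 of the 9 were lower, 4 did not pass and the values ran from -0.42 to 0.12. Hibadh, the hydroxyisobutyrate dehydrogenase of the valine arm, was at 134, 125 and 131 CPM in the mutant hearts and at 212, 212 and 213 CPM in the control hearts. Hibch, Aldh6a1 and Echs1, which act beside it, fell to 62.5%, 64.3% and 63.8% of their control levels, each with non-overlapping groups. Exons on the opposite strand share 18.6% of the exon bases of Aldh6a1. Among genes that act after the leucine arm, Acat1, the thiolase, fell by 0.46 on the log2 scale. Oxct1, which activates acetoacetate for oxidation, fell to 25.1% of its control level (edgeR quasi-likelihood adjusted p = 1.15e-07).

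**Figure D4:**
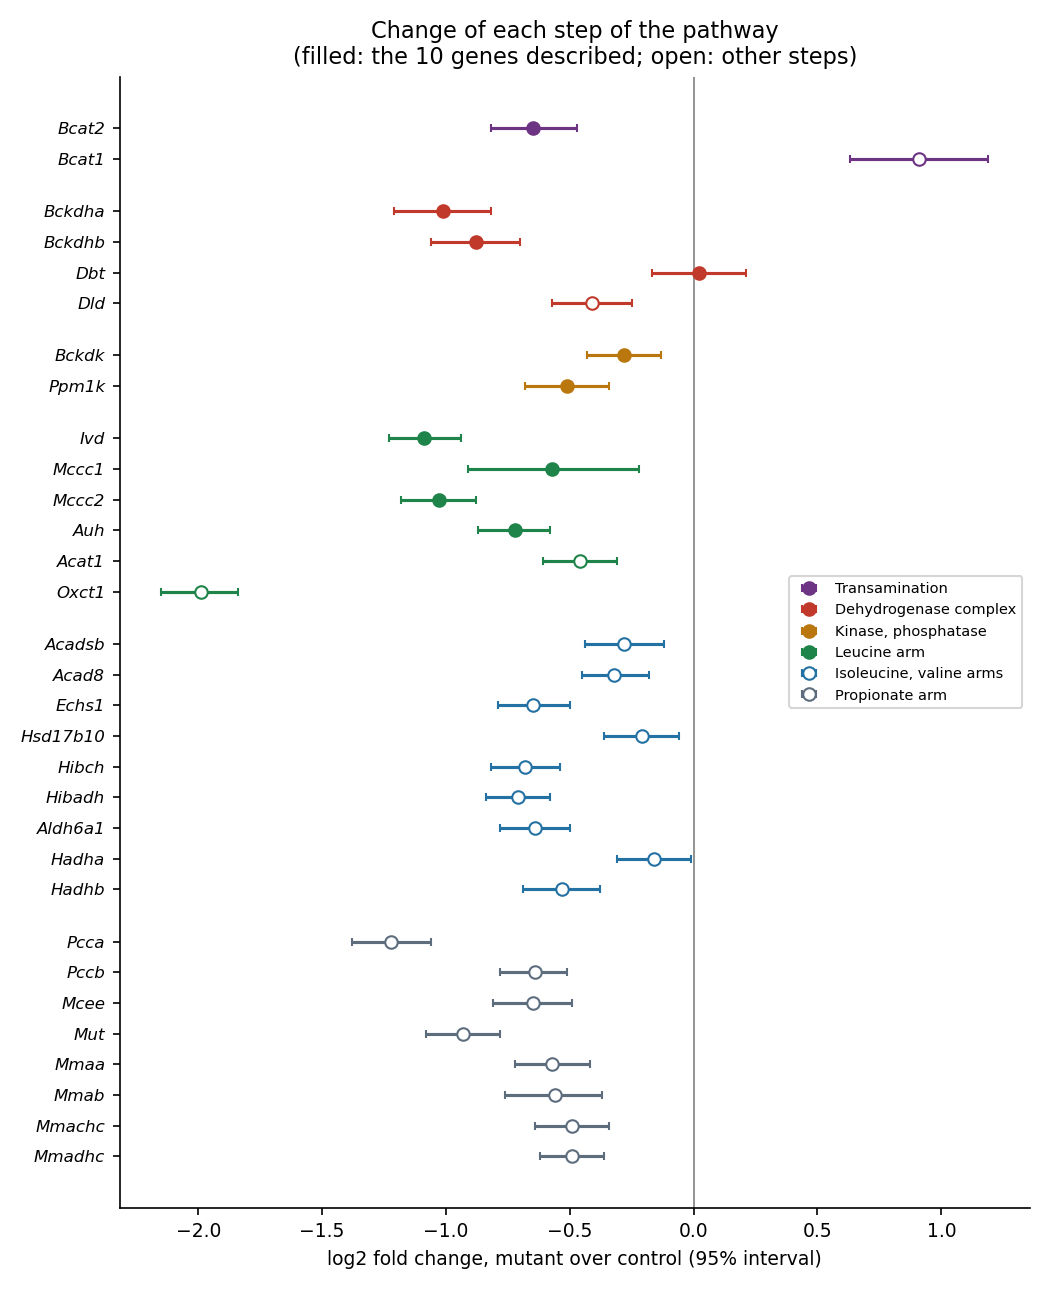
Log2 fold change of mutant over control hearts with its 95% interval for genes listed by step. Filled points are the 10 genes described first and open points the other steps. Hadha and Hadhb, known from fatty acid oxidation, are shown with the isoleucine and valine arms. Most intervals lie below 0, that of Dbt spans it, Bcat1 lies above it at 0.91 and Oxct1 is lowest at -1.99.

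Among 6 genes for transport of branched-chain amino acids, 1 was higher, 1 was lower and 4 did not pass, with a median log2 fold change of -0.12, and of 0.16 with library totals alone. The plasma membrane carrier gene Slc43a2 was at 13.9, 15.4 and 14.6 CPM in the mutant hearts and at 25.5, 23.0 and 27.0 CPM in the control hearts, a fall to 58.1% of the control level. Slc7a5, a carrier for large neutral amino acids, was at 9.12 ± 0.774 CPM in mutant hearts and 7.07 ± 0.313 CPM in control hearts (SD, n = 3 each), a rise of 0.36 on the log2 scale (edgeR quasi-likelihood adjusted p = 0.0143). That call was lost without mutant replicate 2 (0.0545) or mutant replicate 3 (0.0653). Slc25a44, the carrier into mitochondria, was at 22.1 ± 1.19 CPM in mutant hearts and 24.3 ± 0.729 CPM in control hearts (SD, n = 3 each), and did not pass (edgeR adjusted p = 0.142).

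Among 5 further genes for biotin supply and other biotin carboxylases, 2 fell and 3 did not pass, with a median of -0.17, and of 0.11 with library totals alone. Pcx, for pyruvate carboxylase, fell to 48.5% of its control level and Acacb, for the mitochondria-associated acetyl-CoA carboxylase, to 68.3%. Among 4 genes that supply lipoate, the cofactor of the E2 subunits, Lias, the lipoic acid synthase, fell by 0.36 on the log2 scale and 3 did not pass. The call of Lias was lost with library totals alone (value -0.08). The 37 genes listed outside the 10 took in transport, cofactors and Klf15. They also held Pcx, Acaca, Acacb, Hadha and Hadhb, which are known from other pathways. Of the 37, 24 fell, 2 rose and 11 did not pass, with a median of -0.41. With library totals alone 18 were lower and 5 higher.

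The pyruvate and oxoglutarate dehydrogenase complexes have the same architecture and share Dld. All 6 of their other subunit genes fell, with a median of -0.68, and all 6 were also lower with library totals alone. The E1 beta gene Pdhb fell to 48.6% and the E2 gene Dlat to 60.6% of the control level, so the E2 gene of the pyruvate complex fell, whereas Dbt did not pass the test. The 7 kinase and phosphatase genes of the pyruvate complex held 2 that were higher, 4 that were lower and 1 outside the call. The phosphatase gene Pdp2 was at 4.16, 5.02 and 5.80 CPM in the mutant hearts and at 22.9, 24.4 and 24.2 CPM in the control hearts, 4.77-fold lower (edgeR quasi-likelihood adjusted p = 9.98e-07), while the kinase gene Pdk3 was 1.84-fold higher. Of 10 other mitochondrial genes, taken as one or a few per process, 9 fell and 1 did not pass, with a median of -0.57. Of these 10, 7 were lower and 1 higher with library totals alone. Their median lay beside that of the 10 branched-chain genes, and no test set the lists apart.

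The 5 genes with the pattern most like that of Ivd over the 6 hearts, among genes with a mean of at least 1 CPM, were Iqsec3, Spag7, Trim54, Alkbh7 and Perm1, with Pearson's r of log2 CPM from 0.9994 to 0.9998. The hearts fall into 2 groups that differed in 5586 genes, and the points share that difference and their libraries, so the values are a description. The sizes of the changes differed widely. Trim54 had a log2 fold change of -2.85, whereas Spag7 was at 47.6 CPM in mutant hearts and 63.9 CPM in control hearts.

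Markers of other cell types differed between the groups too. The summed level of 8 macrophage markers was 91.9 to 98.4 CPM in mutant hearts and 138 to 152 CPM in control hearts, with 7 of 8 lower. The 8 fibroblast markers summed to 3018 to 3379 CPM in mutant hearts and 2635 to 2977 CPM in control hearts, with 3 higher and 0 lower. The 8 endothelial markers summed to 1807 to 1996 CPM in mutant hearts and 2239 to 2439 CPM in control hearts, with 6 lower. The 8 smooth muscle and pericyte markers summed to 2208 to 2308 CPM in mutant hearts and 2406 to 2631 CPM in control hearts, with 1 higher and 3 lower. The 1 higher was Cspg4, which was 2.19-fold higher in mutant hearts and is named after its values were seen. The 3 lower were Rgs5, Kcnj8 and Abcc9, with log2 fold changes of -0.26, -0.27 and -0.24, and 4 did not pass. The 4 red cell markers overlapped, at 83.2 to 224 CPM in mutant hearts and 145 to 225 CPM in control hearts. Of 8 heart muscle markers 4 were lower, 0 higher and 4 did not pass. Without Myh6 the other 7 summed to 26185 to 27478 CPM in mutant hearts and 29538 to 32717 CPM in control hearts. The median log2 fold change of these 7 was -0.08. The defining markers of the labelled tissue were thus abundant in both groups. None of these markers was at 0. These directions rest in part on the scaling: with library totals alone all 8 fibroblast markers were higher, 0 of 8 endothelial markers were higher or lower, and 6 of 8 macrophage markers were lower. The smooth muscle and pericyte markers then had 2 higher and 0 lower, and the heart muscle markers 2 higher and 2 lower. Their part in the changes of the branched-chain genes was not tested.

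**Figure D5:**
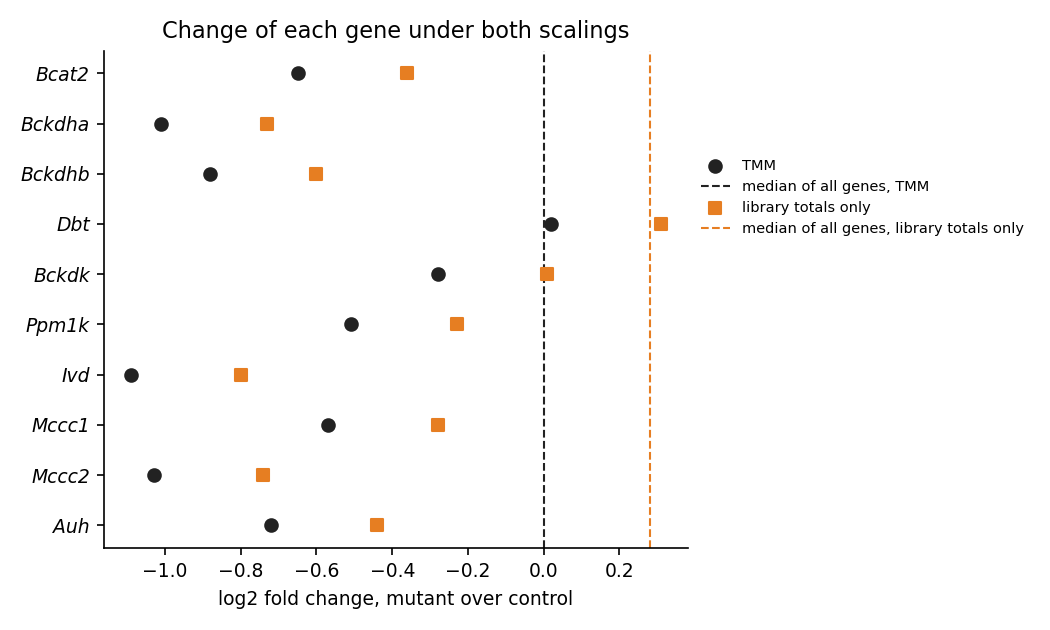
Log2 fold change of mutant over control hearts for the 10 genes with TMM scaling (circles) and with library totals only (squares), with dashed lines at the median of all genes tested. Every gene moves up by about the shift of the median, 0.28, and with library totals only Bckdk is at 0.01 and Dbt at 0.31.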

How the data were processed

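RNA was sequenced from 6 hearts, 1 per pup, grouped by sample title into 3 mutant and 3 control. The authors deposited raw counts by Ensembl gene, and the submitters' processing notes name cutadapt 1.9, STAR 2.5.2b, featureCounts 1.5.1 and mm10; for annotation, strand and multi-mapped reads the settings were not given in the sources used. Per the labels, the library kit was Illumina TruSeq RNA, which does not mark strand. The authors' deposited RPKM values are those counts scaled by gene length and library total, without composition scaling. Symbols came from GENCODE M21, which named 20081 of 20121 identifiers.

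Counts were tested with edgeR 4.0.16 (R 4.3.3): filterByExpr, TMM, quasi-likelihood F test, Benjamini-Hochberg over 14877 genes, call at adjusted p under 0.05. SE was the log2 fold change over the root of F, and 95% intervals used the model's degrees of freedom. Alternatives used DESeq2 1.42.0, limma 3.58.1 on log2(RPKM + 1) and log2(RPKM + 0.1), other scalings, no filter, a replicate block and single hearts left out. Ratios were tested by exact permutation. The p-values reflect spread among 3 separate pups a group.

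The members and lists were chosen with earlier results of these data known. All 10 members are named. From each other list up to 4 called genes with the smallest adjusted p, or otherwise the 2 with the highest mean CPM, could be named, besides Bcat1, Dld, Slc25a44, Klf15, Aldh6a1, Pcca, Pccb, Mut and 3 label checks. B3gnt8 was added after its overlap was seen, and Hadha, Hadhb and Acaca are named to show what their lists hold. Of the genes in the lists, 1 was left out of all counts and is not reported here.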

Additional observations from a re-analysis of the deposited data

How the results depend on the processing

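The count of 9 lower members was also found with DESeq2, its size factors in edgeR, no filter, and mitochondrial genome genes left out; it was 7 with library totals only and in limma on log2(RPKM + 1) and log2(RPKM + 0.1), and 6 on log2(RPKM + 1) without a filter. Members called higher numbered 1 in each of these last 4 settings (Dbt) and 0 in the others. Over all genes, edgeR with DESeq2 size factors called 2854 of 14877 lower and 2738 higher. With no filter edgeR called 2811 of 20121 lower and 2630 higher. Without mitochondrial genome genes it called 2792 of 14906 lower and 2802 higher. Limma on log2(RPKM + 1) called 1215 of 14877 lower and 7349 higher. Without a filter limma called 1170 of 20121 lower and 6916 higher. Leaving out single hearts gave 8 to 9 lower and 0 higher members, where 2234 to 2856 of all genes were lower and 2039 to 2661 higher. Other pathway genes called higher numbered 2, but 5 with library totals only and in each of the 3 limma fits, and 1 to 3 without single hearts; 21 to 25 were then lower. Library totals only reversed Bckdk (0.01), Slc25a44 (0.15) and Klf15 (0.06). So did limma on log2(RPKM + 0.1), to 0.0048, 0.14 and 0.06, and on log2(RPKM + 1), filtered or not, to 0.0046, 0.13 and 0.05. These settings lack composition scaling. Dbt ranged from -0.06 to 0.06 without single hearts. No within-library ratio changed direction without single hearts: Dbt to Bckdha stayed at 0.93 to 1.16, but Bckdhb to Bckdha fell to 0.01.

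The titles do not say that replicate numbers mark a litter or day, so the numbers were not taken as pairs. Deviations of same-numbered hearts from their group means had correlations of 0.15, -0.05 and 0.10. Those of the other pairs across groups ran from -0.18 to 0.09. With a replicate block, 9 members were lower and 0 higher, where 3229 of all 14877 genes were lower and 3090 higher. The block changed no call of a member.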
